A study of Mus musculus with 5 samples.

Results

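TNF drives fibroblast-like synoviocytes (FLS), the mesenchymal lining cells of the joint, to secrete cytokines, chemokines and enzymes that recruit and activate leukocytes. The canonical route runs from the TNF receptor through the IκB kinase complex to the nucleus, where RELA (p65) binds DNA as a subunit of NF-κB and many cytokine and chemokine promoters carry its recognition element. SOX4 is a high mobility group box factor of the SoxC group that binds a short AT-rich word. The 39 genes described here were listed by name as TNF-induced cytokine, chemokine and adhesion genes, and were taken from 21911 protein-coding genes on chromosomes 1 to 19, X and Y. A gene was said to hold a peak when the summit lay in the gene body or at most 50 kb upstream of the gene start (mm10, GENCODE vM21). The genes were listed with earlier results of these peaks known, although no peak value entered the rule. The peak lists hold no expression values, so induction by TNF was not checked here.

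The data were peak lists from 4 ChIP-seq libraries of wildtype C57BL/6 mouse FLS at passage 3. The cells were immunoprecipitated for SOX4 or RELA, each without treatment or after 10 ng/mL TNF for 16 h. DNA from triplicate cultures was pooled before sequencing, so each condition had 1 library, spread between cultures could not be estimated, and all 4 lists were called against 1 input library from untreated cells. The lists held 192 peaks (SOX4 untreated), 543 peaks (SOX4 TNF), 561 peaks (RELA untreated) and 2502 peaks (RELA TNF), with median widths of 56 to 60 bp and median fold enrichments over input of 8.15 to 9.62. Reads and coverage were not analysed here, so a missing peak means that none was listed. The paper states a sequencing depth per sample, but the mapped depth of each library is unknown.

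Only 2 of the 39 genes held a summit, and 37 held none in any list. Il15, which encodes a cytokine that sustains natural killer and memory T cells, held a SOX4 peak without TNF, a SOX4 peak with TNF and a RELA peak with TNF. Edn1, which encodes the precursor of the vasoconstrictor peptide endothelin, held a RELA peak with TNF. The sequences under these peaks are printed here because they are the member loci that the results turn on. The first is the Il15 site at chr8:82343959-82344010 (mm10, minus strand, the widest of its 3 peaks), with the E-box CACGTG in capitals, a word looked at after the sequence had been read. The second is the 250 bases upstream of the Edn1 start at chr13:42301226-42301475 (plus strand), with the RELA TNF peak in capitals. Both read 5′ to 3′ along the gene.
Il15 site: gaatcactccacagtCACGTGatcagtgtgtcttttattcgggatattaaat
Edn1 upstream: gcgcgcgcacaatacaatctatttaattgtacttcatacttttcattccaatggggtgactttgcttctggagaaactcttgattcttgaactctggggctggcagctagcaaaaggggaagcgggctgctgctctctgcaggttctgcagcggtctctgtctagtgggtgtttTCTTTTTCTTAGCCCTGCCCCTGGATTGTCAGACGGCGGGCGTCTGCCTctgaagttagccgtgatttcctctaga

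By list, 1 of the 39 genes held a SOX4 untreated summit (2.56%, Wilson 95% interval 0.454 to 13.2%), against 0.826% of all protein-coding genes. The same gene, Il15, held a SOX4 TNF summit, against a background of 2.03%. None held a RELA untreated summit (upper limit 8.97%), where the background was 1.52%. For RELA TNF, 2 genes held a summit (5.13%, 1.42 to 16.9%), against 9.26%. SOX4 and RELA summits at most 50 bp apart with TNF occurred at 1 gene, again Il15, against a background of 1.47%. Over the 4 lists together the count was 2, against 9.99%. Every background value lay inside the interval of the members' share for its list, so neither an excess nor a deficit of peaks was detectable with 39 genes. The intervals cover counting error only.

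The windows of the listed genes were shorter than most, and the share of genes with a summit rose with window length. The median window of the 39 genes was 56868 bp (range 51615 to 140525 bp), against 67433 bp for all protein-coding genes. The share of protein-coding genes with a RELA TNF summit was 5.23% for windows under 55 kb, 6.32% from 55 to 65 kb, 8.35% from 65 to 85 kb and 15% at 85 kb and over. The 39 genes numbered 13, 14, 6 and 6 in these classes, and held 0, 1, 0 and 1 RELA TNF summit. With the class shares of all genes, 39 genes of these lengths would count 2.96 with a RELA TNF summit, 0.647 with SOX4 TNF, 0.465 with RELA untreated and 0.269 with SOX4 untreated. The observed counts of 2, 1, 0 and 1 each lay within about 1 gene of these values.

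The windows overlapped in 3 places, where Ccl2, Ccl7 and Ccl11, Cxcl1 and Cxcl2, and Cxcl9 and Cxcl10 lie side by side, so the 39 windows made 35 separate regions of 2.45 Mb (0.0925% of called bases). They contained 2 of 2502 RELA TNF summits (0.0799%, 0.0219 to 0.291%), and an even density would place 2.32 there. For SOX4 TNF the windows contained 1 of 543 summits (0.184%, 0.0325 to 1.04%) and for SOX4 untreated 1 of 192 (0.521%, 0.092 to 2.89%), where even density gives 0.502 and 0.178. For RELA untreated they contained 0 of 561 (upper limit 0.68%), where even density gives 0.519. No listed gene lies on chromosome Y, but both RELA lists held summits there. Without Y the RELA TNF share was 0.0966% (0.0265 to 0.352%) and the RELA untreated upper limit 0.947%, while the SOX4 shares were unchanged. The even-density values and the shares of all protein-coding genes include Y and were not recomputed without it.

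**Figure D1:**
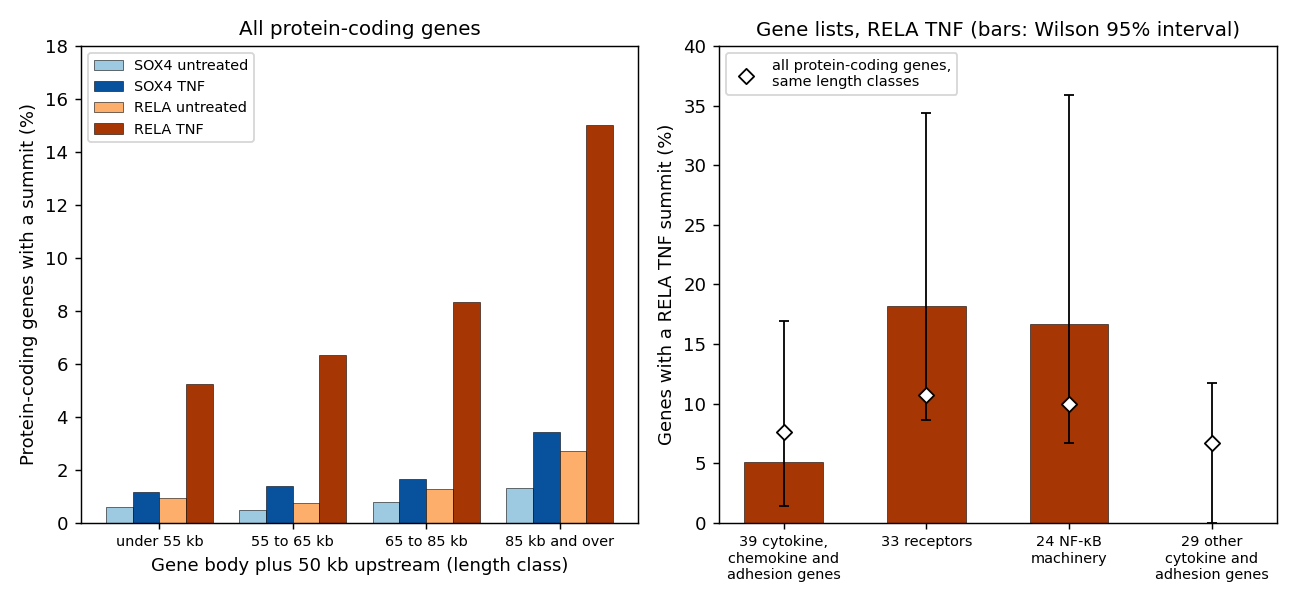
Left, percent of all protein-coding genes with a summit in the gene body or 50 kb upstream, by window length class and peak list. Right, percent of each gene list with a RELA TNF summit, with the Wilson 95% interval as the line and the share of all protein-coding genes in the same length classes as a diamond; the 39 genes stand at 5.13% beside 7.6%, and the intervals of all lists include their diamonds.

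The Il15 site lay inside the gene (ENSMUSG00000031712.10, chr8:82331632-82403222, minus strand), 59220 to 59233 bp from its start. The SOX4 untreated peak spanned 82343959 to 82344009, with its summit at 82343995, and was enriched 7.93-fold (−log10 q 8.93). The SOX4 TNF peak spanned 82343959 to 82344010, with its summit at 82343989, and was enriched 6.45-fold (−log10 q 8.68). The RELA TNF peak spanned 82343959 to 82344009, with its summit at 82344002, and was enriched 9.98-fold (−log10 q 15.5). All 3 summits lay within 13 bp of each other, and no other protein-coding gene was assigned to them.

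RELA untreated had no peak there, and its nearest summit was 1147980 bp from the Il15 start. Within their own lists the Il15 peaks ranged from the low end to the middle: the fold enrichment exceeded that of 39.1% of SOX4 untreated peaks, 13.6% of SOX4 TNF peaks and 50.9% of RELA TNF peaks. The log2 ratio of SOX4 fold enrichment, TNF over untreated, was −0.30. Of 161 SOX4 sites listed both with and without TNF, 15 were lower with TNF, and 2 were at or below the Il15 value. The combination at Il15, SOX4 in both treatments and RELA with TNF alone, occurred at 8 of these 161 sites, while 149 of them were listed for RELA in both treatments. With 1 library per condition none of these differences could be tested.

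In the annotation 6 Il15 transcripts spanned the SOX4 TNF summit, and 1 of them had it in an exon. This was exon 3 (82343959 to 82344036) of a transcript annotated for nonsense-mediated decay, of which 82343964 to 82344036 is coding and 82343959 to 82343963 is annotated as UTR. The peaks also ran a few bases into exon 5 of a protein-coding transcript (82344003 to 82344036). All 3 peaks began on the same base, which is an edge of that exon 3. A peak boundary on an exon edge was rare: 2 of 192 SOX4 untreated peaks (1.04%), 1 of 543 SOX4 TNF peaks (0.184%) and 2 of 2502 RELA TNF peaks (0.0799%), the Il15 peak included each time. Among 381 SOX4 TNF peaks with a RELA TNF summit at most 50 bp away, 66 (17.3%) began on the same base in both lists. The site was not soft-masked as a repeat, and the 50 bases around each summit occurred 1 time in the reference. Soft-masked bases held 50% of SOX4 untreated, 56.2% of SOX4 TNF, 64.5% of RELA untreated and 74.9% of RELA TNF summits.

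Edn1 (ENSMUSG00000021367.8, chr13:42301476-42307990, plus strand) had its RELA TNF peak in the promoter. The peak spanned 42301400 to 42301448 with its summit at 42301430, 46 bp upstream of the gene start, which GENCODE and RefSeq place on the same base. Its fold enrichment was 6.99 and its −log10 q was 8.35, and by fold enrichment it exceeded 9.91% of RELA TNF peaks, near the low end of its list. No RELA untreated peak lay nearer than 111491 bp and no SOX4 TNF peak nearer than 2877584 bp. Such a position was uncommon: 5 of 2502 RELA TNF summits (0.2%) lay within 100 bp of a protein-coding gene start, and 36 (1.44%) within 1 kb. The bases were not soft-masked and were found 1 time in the reference, and GC content over 100 bases was 54%, against 35 to 38% at Il15.

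**Figure D2:**
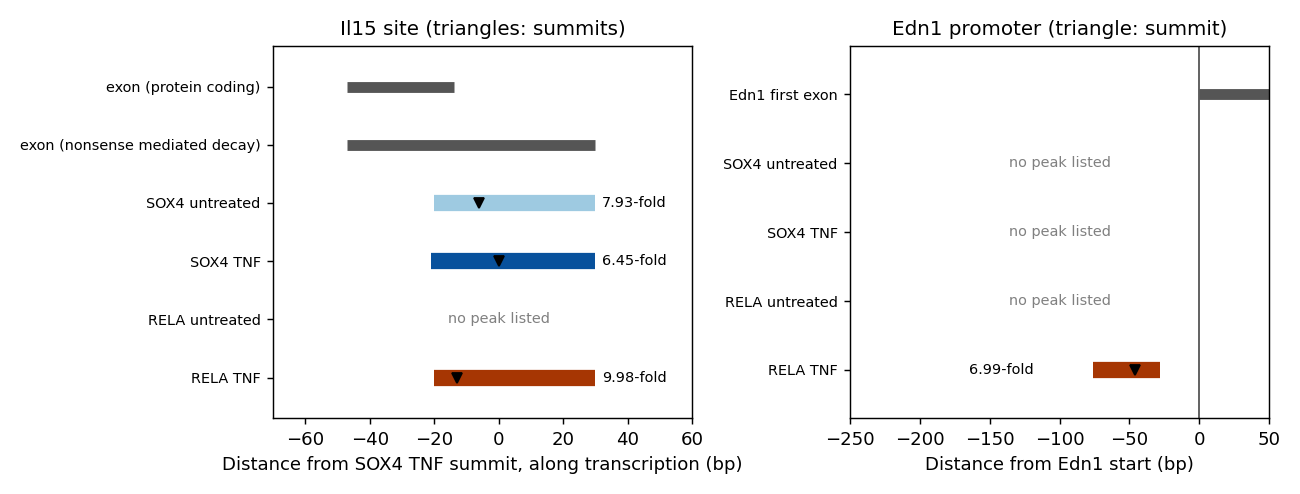
Peak intervals (coloured bars) and summits (triangles) at Il15, by distance in bp from the SOX4 TNF summit, and at Edn1, by distance in bp from the gene start, with exons in grey and fold enrichment written beside each bar. At Il15 the 3 listed peaks share an end at the edge of an exon of the nonsense-mediated decay transcript and RELA untreated has none; at Edn1 the sole peak is RELA TNF, at 46 bp upstream.

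Promoters of the listed genes were read for recognition words, since NF-κB elements near the start are textbook features of many of them. RefSeq promoters (GRCm38.p6, 250 bases before to 50 after the start) were present for 27 of the 39 genes, 29 promoters in all. The RefSeq start can differ from the GENCODE start used for windows and distances, as at Ptges, Il11, Sod2 and Tlr2. The Ptges promoter at chr2:30903248-30903547 lay well inside its GENCODE gene, which starts at 30929863. Those of Il15, Csf3, Cxcl5, Tnfrsf11b, Ccl11, Nos2, Vcam1, Cxcl16, Ccl2, Ccl7, Ccl5 and Il34 were not used here. The NF-κB consensus, searched on both strands, was found in promoters of 8 of the 27 genes (29.6%, 15.9 to 48.5%) and in 4.51% of all 32851 promoters. For this and the other words the listed genes are counted by gene and the background by promoter, so the units differ. These 8 are shown because they are the member promoters where RELA would be looked for by sequence and where no list had a summit. Each site is the match nearest the start with 10 bases on either side, 5′ to 3′ along the gene, with the match (or overlapping matches) in capitals.
Il6 chr5:30013060-30013089: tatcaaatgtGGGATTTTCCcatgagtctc
Cxcl1 chr5:90891164-90891194: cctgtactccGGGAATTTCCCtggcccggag
Cxcl2 chr5:90903792-90903822: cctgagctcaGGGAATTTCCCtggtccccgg
Cxcl10 chr5:92348973-92349002: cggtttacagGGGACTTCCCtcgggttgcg
Ccl20 chr1:83116676-83116705: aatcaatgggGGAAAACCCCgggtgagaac
Csf1 chr3:107760604-107760633: gggccttgagGGAAAGTCCCtaggggccag
Tlr2 chr3:83841597-83841626: ccctgacctgGGGACATCCCcttccctcac
Sod2 chr17:13007746-13007775: cggggcggacGGGGTTCCCCgaggcggggc

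Il6, Cxcl1, Cxcl2, Ccl20 and Sod2 are on the plus strand, and Cxcl10, Csf1 and Tlr2 on the minus strand. Counted from the RefSeq start as base 1, the site lay at −44 to −35 in Il6, at −71 to −61 in Cxcl1, at −97 to −87 in Cxcl2 and at −103 to −94 in Cxcl10. In Ccl20 it lay at −80 to −71, in Csf1 at −154 to −145, in Sod2 at −83 to −74 and in Tlr2 at −8 to 2. The neutrophil chemokines Cxcl1 and Cxcl2 carried the same 11 bases, GGGAATTTCCC. Cxcl10 and Tlr2 each had a further site, from −159 in Cxcl10 and from −173 in Tlr2.

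None of these 8 promoters held a RELA TNF summit. Across the table, 3 of 32851 promoters (0.00913%) held one, the Edn1 promoter among them, and 0 of the 1480 promoters with the NF-κB consensus did. The Edn1 promoter had no match, nor did the 100 bases around the Edn1 and Il15 summits. Around all RELA TNF summits the consensus was found in 11 of 2502 windows of 100 bases (0.44%), and in 3 of 561 windows (0.535%) for RELA untreated. SOX4 summits had similar shares, 3 of 543 windows (0.552%) with TNF and 1 of 192 (0.521%) untreated. Windows and promoters differ in length, so their shares are not compared. No share was computed for 100-base windows elsewhere in the genome, so these shares cannot be called high or low.

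The SOX core AACAAT was found in the promoters of Ptges, Il1a and Csf1 (3 of 27 genes, 11.1%, 3.85 to 28.1%), near the 10.7% of all promoters. The AP-1 word TGANTCA was found in Il1a, Il6, Cxcl9, Cxcl10, Il11 and Lif (6 of 27, 22.2%, 10.6 to 40.8%), against 7.81% of all promoters. Neither word occurred within the 100 bases around the Il15 or Edn1 summits. Il15 is one of the paper's examples of a gene bound by both factors, and it reports that SoxC knockout in FLS prevented the TNF induction of Il15. The paper also reports SOXC sites in its cloned Il15 peak region. Mutating them removed activation of a reporter by overexpressed SOX4 or SOX11 in a transfected cell line, not in FLS. The cloned region was longer than 100 bases, so not all of it was searched here. AACAAT was present around 5.52% of SOX4 TNF summits and 5.21% of SOX4 untreated summits. Around RELA summits it was more frequent, at 7.35% with TNF and 6.42% untreated, a difference that was not tested. The paper ran a de novo motif search on other sets of peaks. It reports SOX and then partial NF-κB motifs where SOX4 and RELA overlap, and NF-κB but not SOX motifs in RELA-only peaks. CACGTG, which the Il15 site contains, was present around 3.12% of SOX4 untreated, 2.39% of SOX4 TNF, 1.6% of RELA untreated and 0.759% of RELA TNF summits. Among the 27 genes its promoter match was in Ptgs2 alone (3.7%, against 7.15% of all promoters).

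**Figure D3:**
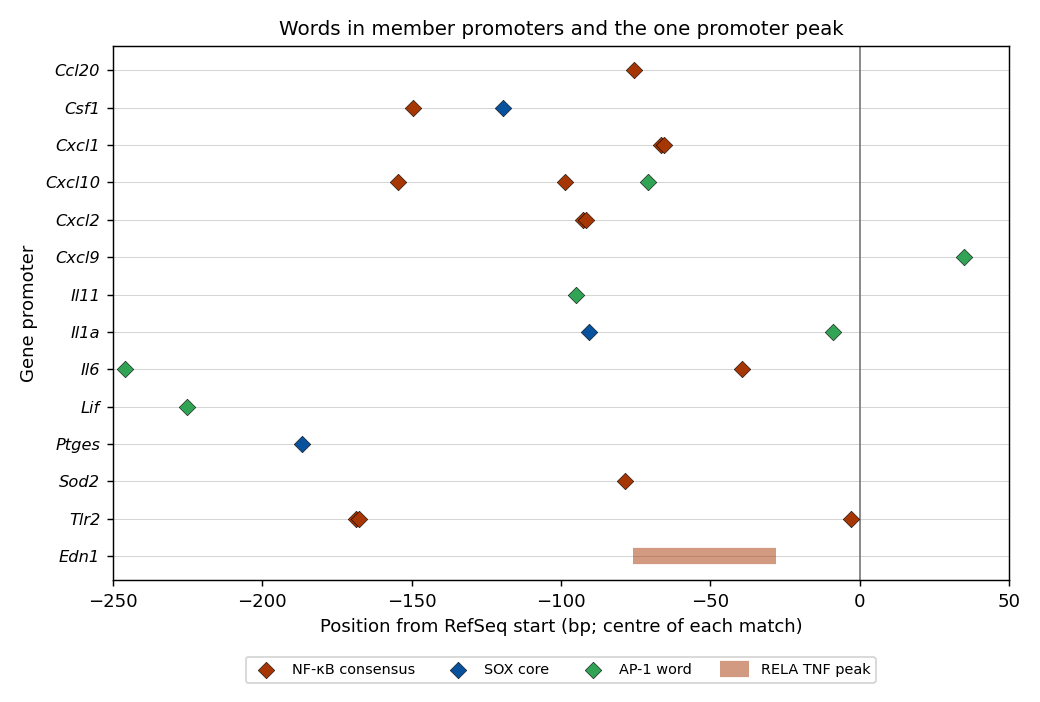
Centres of matches to the NF-κB consensus, the SOX core and the AP-1 word in the promoters of listed genes, by position in bp from the RefSeq start, with the RELA TNF peak of Edn1 as a bar. The 13 promoters with a word have no peak and that of Edn1 has no word, while 0.00913% of all promoters hold a RELA TNF summit, so nothing is read from the absence of peaks at the words.

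Of the 37 genes without a summit, 4 had the nearest one within 100 kb of the start, 19 at 100 to 500 kb, 8 at 500 to 1000 kb and 6 beyond 1000 kb. For 36 of them the nearest summit was RELA TNF, the longest list. The same count over all protein-coding genes was not made, so it is not read as a trait of these genes. Among the enzymes, Nos2, which encodes inducible nitric oxide synthase, had a RELA TNF summit 46420 bp from its start, but 6953 bp beyond its far end (fold enrichment 7.12, −log10 q 10.9). Ptgs2, which encodes cyclooxygenase for prostaglandin synthesis, had one 55150 bp upstream (7.98-fold). Ptges, the prostaglandin E synthase downstream of it, had one 119226 bp upstream (28.9-fold). For Sod2, the mitochondrial superoxide dismutase, the distance was 775390 bp. The summits nearest to Nos2 and Ptgs2 were thus just outside the window. Among the 37 genes, the nearest summit was not soft-masked for Nos2, Tnf, Lif, Csf1, Csf3, Il11, Ccl5, Cxcl12 and Vcam1. For all the others, Ptges and Il33 included, it lay on soft-masked sequence.

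Among acute phase and innate genes, Saa3, a serum amyloid A made in inflamed tissue, had a RELA TNF summit 83027 bp upstream with the tallest nearest peak of the 39 genes (30.4-fold, −log10 q 79.3), which lay on soft-masked repeat sequence. Tlr2, a receptor for bacterial lipoproteins, and C3, the central complement component, were 253862 bp and 1028056 bp from theirs.

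The CC chemokines attract monocytes, eosinophils and lymphocytes, and none of 6 held a summit. Ccl2, Ccl7, Ccl11 and Ccl8 lie in that order on chromosome 11 and shared their nearest RELA TNF summit, upstream at 123520 bp, 133661 bp, 145772 bp and 203134 bp (12-fold, on soft-masked sequence). Ccl5, a T cell attractant, and Ccl20, the ligand of Ccr6, were 707861 bp and 893724 bp from the nearest one. In SOX4 TNF the 4 clustered genes were 2631198 to 2710812 bp from a summit.

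None of 8 CXC and CX3C chemokines held a summit either. Cxcl16, a transmembrane scavenger receptor and chemokine, was closest, with a RELA TNF summit 83632 bp upstream (8.98-fold). Cx3cl1, the membrane-bound fractalkine, was 147290 bp away. The interferon-inducible T cell attractants Cxcl10 and Cxcl9 shared a summit at 152907 and 173717 bp (14.5-fold). Cxcl12, which retains leukocytes in tissue through Cxcr4, was 430395 bp away. The neutrophil attractants Cxcl5, Cxcl1 and Cxcl2 shared a summit at 903419, 1035300 and 1047930 bp (13-fold). The chemokines with NF-κB consensus promoters were thus spread over nearest distances from 152907 bp (Cxcl10) to 1047930 bp (Cxcl2).

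Of the interleukins, TNF and growth factors, 11 of 12 held none. Il6, an inducer of acute phase and plasma cell responses, had its nearest RELA TNF summit 123514 bp from the start, 116647 bp beyond the far end of the gene. The granulocyte and macrophage factor Csf2 was 149537 bp away, and Il34, a second ligand of the Csf1 receptor, 190121 bp. Il1b and Il1a, which signal through the same receptor Il1r1, shared a summit at 220043 and 281210 bp. Lif, a cytokine of the Il6 family, was 228169 bp and Tnf itself 244438 bp from the nearest. Csf3, the granulocyte factor, was 449202 bp and the alarmin Il33 452642 bp away (23.9-fold at Il33). Csf1, the macrophage factor, was 678296 bp away, and Il11, another cytokine of the Il6 family, was the farthest of the 39 at 1369663 bp.

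None of the adhesion genes held a summit. Icam1, the ligand of the integrin Itgal with Itgb2, was 506112 bp from the nearest RELA TNF summit (13.3-fold). The hyaluronan receptor Cd44 was 1015907 bp away although its window was the longest of the 39. Vcam1, the ligand of Itga4 integrin, was the sole gene with a SOX4 TNF summit as its nearest, at 1048657 bp, with RELA TNF at 1114590 bp. The osteoclast factor Tnfsf11 (RANKL) was 915669 bp and its decoy receptor Tnfrsf11b (osteoprotegerin) 941701 bp from the nearest RELA TNF summit.

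**Figure D4:**
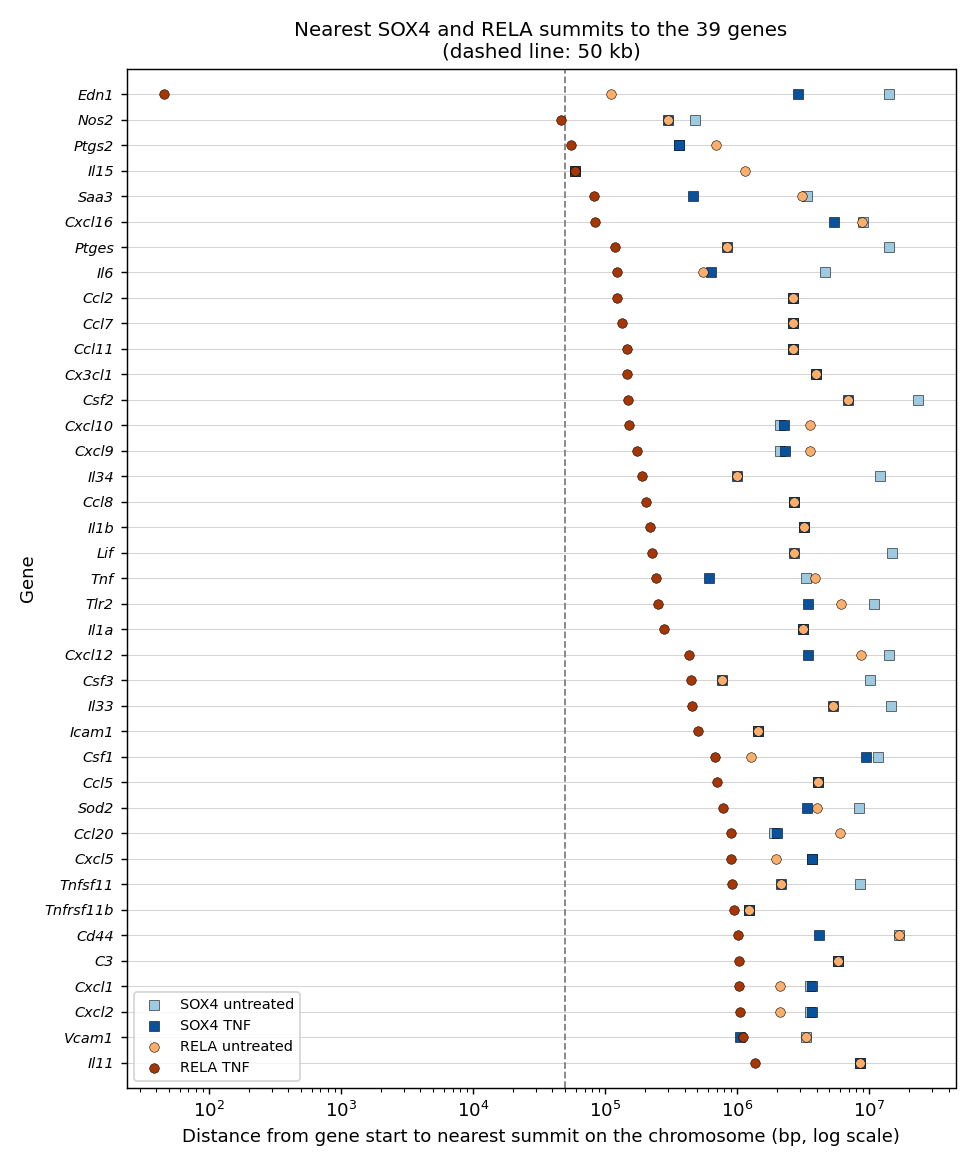
Distance in bp on a log scale from the start of each of the 39 genes to the nearest summit of each list, with genes ordered by the nearest of all and a dashed line at 50 kb. Edn1 at 46 bp stands apart, Il15 has 3 lists at 59220 to 59233 bp, with the summits inside the gene, and RELA TNF is nearest for 38 of the 39 genes.

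The median distance from the start to the nearest RELA TNF summit was 244438 bp over the 39 genes (95% interval of the median 149537 to 678296 bp), against 340556 bp over all protein-coding genes. Within 1000 kb of a RELA TNF summit were 33 of the 39, against 82.2% of protein-coding genes, and within 100 kb 6 of the 39, against 19.7%. For SOX4 TNF the median was 2686916 bp (2010586 to 3459032 bp), against 1636352 bp, with 8 of 39 genes within 1000 kb and 34.8% of protein-coding genes. The interval for SOX4 TNF lay above the median of all genes, and the order-statistic interval treats clustered genes as separate. For RELA untreated the median was 2710804 bp (2110941 to 3876811 bp) against 2563749 bp, and for SOX4 untreated 3694953 bp (3162061 to 8509906 bp) against 4793360 bp. For both SOX4 lists the background was the 21728 protein-coding genes on chromosomes with a summit of that list, and for both RELA lists all 21911. The lists differ in size, which by itself changes nearest distances.

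Receptors and signalling components of the same pathways were counted in the same way. Of 33 receptors, 6 held a RELA TNF summit (18.2%, 8.61 to 34.4%), against 10.7% of all genes in the same length classes, and none held a summit in the other 3 lists. The 5 with the highest fold enrichment were Il1r1 (17.5-fold, 9080 bp downstream of its start), the receptor of Il1a and Il1b, Il11ra1 (11.5-fold), the receptor chain of Il11, Il1rap (10.5-fold), the co-receptor of Il1r1, Tnfrsf1a (8.88-fold, 30904 bp upstream), the main TNF receptor, and Itgal (6.41-fold). Their ligands Il1a, Il1b, Il11, Tnf and Icam1 held none, as was so for 37 of the 39 genes. These pairs start from receptors named for holding a summit. The median window was 81552 bp for the 33 receptors and 56868 bp for the 39 genes. Of 24 genes of NF-κB signalling, 4 held one (16.7%, 6.68 to 35.9%, against 9.92%). These were the adaptor Traf2 (26.7-fold with TNF and 8.09-fold without), the inhibitors Nfkbib and Nfkbie (13.5-fold each) and the adaptor Traf1 (11-fold). Of 29 further cytokine and adhesion genes, 0 held a summit in any list (upper limit 11.7%, against 6.71% for RELA TNF in the same length classes). Each interval includes its length-class share, and the difference between receptors and ligands was not tested.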

How the data were processed

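ChIP-seq peaks were measured in 4 libraries of mouse FLS. Per the labels and methods, reads were mapped to mm10 and MACS (Strand NGS) was run by the authors against 1 untreated input library. Per the file headers, the fragment length was 300 and the p-value cutoff 1e-05. Scores deposited for each peak are its p and q as −log10 values. The fold column deposited with them is a ratio of ChIP signal to background. All peaks were used as listed, with their summits.

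Summits were assigned to GENCODE vM21 genes in Python 3.11.15 (pandas 2.3.3, numpy 2.4.6). Window length classes have limits at 55, 65 and 85 kb. Shares have Wilson 95% intervals, which cover counting error only, and medians have order-statistic intervals. No test was run, since each condition had 1 library. Words were searched on both strands, and assignment and distances were tested on simulated data. Soft-masked bases and the 50-base copy count came from the reference. Promoters are RefSeq's.

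The 39 genes and the other gene lists were chosen with earlier results of these data known. Members with a summit are named with their peaks, the others with the nearest summit, and of the other lists at most the 5 genes with the highest fold enrichment. The alternatives were a stricter threshold (−log10 q of at least 10), upstream distances of 5 and 100 kb, both sides of the gene, interval overlap, nearest start, unmasked and single-copy summits, chromosomes 1 to 19 and X, summit distances of 10 and 500 bp and a degenerate consensus.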

Additional observations from a re-analysis of the deposited data

Results flagged for a closer look

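At Il15 the peaks listed with and without TNF differed between SOX4 and RELA. The log2 ratio of SOX4 fold enrichment, TNF over untreated, was −0.30, while the RELA peak was listed with TNF only. An unlisted RELA peak is not a measured value, and the SOX4 peaks had similar −log10 q (8.93 untreated, 8.68 with TNF). The difference was not tested, as each condition had 1 library.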

How the results depend on the processing

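No paired analysis was possible because DNA was pooled into 1 library per condition. The 15 results were recomputed in 70 ways. In 13 the count changed by more than 1.5 times, or the share or median left the 95% interval of its main value, and the other 57 changed by less or not at all. At a −log10 q of at least 10, genes with a SOX4 untreated summit, with a SOX4 TNF summit and with shared SOX4 and RELA TNF summits each fell to 0, RELA TNF fell to 1 (Il15), the percent of SOX4 summits in the windows was 0 in both lists, and the median distance to a SOX4 untreated summit was 8704619 bp. With 100 kb upstream RELA TNF rose to 5 genes (Ptgs2, Saa3 and Cxcl16 added). Assigned to the nearest start, RELA untreated had 1 gene (Edn1, at 111491 bp). With a summit distance of 10 bp the shared count was 0. With summits on unmasked bases the median distance was 9498681 bp for SOX4 untreated and 787086 bp for RELA TNF, and the percent of RELA TNF summits in the windows was 0.318%. The same 2 genes, Il15 and Edn1, held a RELA TNF summit in that setting, while soft-masked bases held 74.9% of that list. Values for all protein-coding genes on unmasked bases were not computed. Within their intervals, the shares of SOX4 untreated and SOX4 TNF summits in the windows were 1.04% and 0.42% on unmasked bases (0.521% and 0.184% with all summits), and the RELA TNF share was 0.0478% at the stricter threshold (0.0799% with all). RELA TNF had 3 genes with 50 kb on both sides (Nos2 added) or by nearest start (Ptgs2 added). The cause was not tested. Genes without a summit numbered 34 to 38 in all settings. The 1 library per condition, the peak threshold and the unknown mapped depth limit every count: an unlisted site may hold signal below the threshold.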

Other observations

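Counting whole families by symbol, a choice made after the data were seen, 1 of 37 chemokine ligand genes held a summit, Ccl26 with RELA TNF, and it is not among the 39. The share of all protein-coding genes with a summit in any list was 9.99%, and 5.83% for windows under 55 kb (the median window of the family was 53498 bp). Of 33 interleukin genes 4 held a RELA TNF summit, namely Il15, Il17c, Il5 and Il7, against 9.26% of all protein-coding genes and 6.32% of those with windows of 55 to 65 kb. Neither count was tested. Il15 was the gene with SOX4 peaks as well.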
